A study of Mus musculus with 20 samples.

Results

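Carcinomas from mice deleted for both Wwox and p53 in skin (double knockout, DKO) were set against carcinomas from mice deleted for p53 alone (PKO), over every gene in the count table. The 6 libraries compared, 3 DKO and 3 PKO, were taken by their labels from the 20 libraries of the series. RNA was sequenced in bulk from cells that had been sorted for tdTomato, a red fluorescent reporter, after dissociation of cutaneous squamous cell carcinomas (cSCC), the cancer of skin keratinocytes. The DKO tumours came from K14cre;Wwoxfl/fl;p53fl/fl mice and the PKO tumours from K14cre;p53fl/fl mice, so both groups carry the keratin 14 promoter driving Cre recombinase and both lack p53 by label. Keratin 14 is made in basal keratinocytes of the epidermis and of hair follicles, so the deletion is expected in their descendants and not in the rest of the tumour. The tumours arose spontaneously and were collected on detection, and the labels used here give no age, site or grade. Samples within a group are labelled as biological replicates. Whether each came from a separate mouse is not given, so the p-values measure the spread between these samples. Tumour libraries held 13380830 to 16784240 counts, and old wild-type epidermis (WT old, 400 days or more, n = 2) shared the fit. The rest of the series was young epidermis, at 100 to 120 days, with n = 3 per group. Its groups were DKO young, PKO young, deletion of Wwox alone (WKO young) and wild type (WT young). Levels of DKO young and PKO young are given for comparison. WKO young and WT young shared the scaling of levels and the fits of all 20 libraries. The title of the series names the epithelial to mesenchymal transition (EMT), and the comparison asks what loss of Wwox adds to loss of p53.

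Wwox encodes an oxidoreductase whose WW domains bind proline-rich motifs of other proteins, among them relatives of p53, and the gene spans a fragile site that is often broken in cancers. The transcription factor p53 holds back division and can trigger death in damaged cells. In normal skin, basal keratinocytes divide, and Notch signalling helps them to leave the basal layer and to form the cornified barrier. Carcinoma cells often take up glucose and run glycolysis at a high rate, driven in part by the hypoxia factor Hif1a, and in EMT they lose junction proteins and gain matrix and motility genes.

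The target genes were examined first. Wwox (ENSMUSG00000004637) stood at 0.444, 1.31 and 1.87 CPM (counts scaled to a common library size, after scaling of all libraries) in DKO cSCC 1 to 3 and at 12.99, 7.36 and 12.3 CPM in PKO cSCC 1 to 3. All 3 DKO libraries lay below all 3 PKO libraries, and the log2 fold change was -3.23 (SE 0.56, edgeR adjusted p = 0.608). An exact two-sided permutation test gave p = 0.1, the smallest that 3 against 3 libraries allow. Trp53 (ENSMUSG00000059552), the gene of p53, stood at 2.74, 2.86 and 45.5 CPM in DKO cSCC 1 to 3, at 4.38, 4.23 and 0.864 CPM in PKO cSCC 1 to 3 and at 34.5 and 25.7 CPM in WT old. The third DKO library is therefore the only tumour library with Trp53 above the WT old range, which goes against its label, and it is called the library labelled DKO cSCC 3. For Trp53 the log2 fold change of DKO against PKO was 2.35 with that library and -0.20 without it, and the exact two-sided permutation p was 0.6 with it and 1 without it.

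The sorted cells were checked for keratinocyte identity and the libraries for depth and sex. Krt5, Krt14 and Trp63, which define basal keratinocytes, were detected in every tumour library, with Krt14 at 8635, 13580.1 and 6583 CPM in DKO and 4322, 3766 and 13045 CPM in PKO, so the ranges overlapped. Between 19873 and 23398 genes had a count, and mitochondrial ribosomal RNA took 19.3% to 40.9% of the counts, the most in the library labelled DKO cSCC 3. Spearman correlations between tumour libraries over genes ran from 0.844 to 0.951. The library labelled DKO cSCC 3 and PKO cSCC 2 had the lowest mean correlations with the other tumours, at 0.872 and 0.878, against 0.905 to 0.924 for the other 4. The Y-linked Eif2s3y was at 0, 26.8 and 23.8 CPM in DKO and 25.5, 20.4 and 19.99 CPM in PKO, and Xist, the RNA that coats the inactive X, was at 466, 13.9 and 0.0892 CPM in DKO. DKO cSCC 1 thus carried the female pattern and the other 5 tumour libraries expressed a Y-linked gene, so sex was not balanced between the groups. WT old had Xist at 1123 and 763 CPM and Eif2s3y at 0 CPM. The DKO and PKO young libraries had Xist at 322 to 1553 CPM and Eif2s3y at 0.123 CPM or less. Most tumours therefore differ by sex pattern from WT old and from young epidermis, and the part of sex in the results was not tested.

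One gene of 16526 tested differed between DKO and PKO carcinomas at an edgeR adjusted p under 0.05, which is 0.00605% of the genes tested. It was Rpl34-ps1 (ENSMUSG00000068396), annotated as a processed copy of the ribosomal protein gene Rpl34, a class that the naming rule leaves out and that is named here after its values were seen. Rpl34-ps1 stood at 472, 296 and 172 CPM in DKO and at 0, 0.116 and 0 CPM in PKO, a log2 fold change of 12.57 in the fit (SE 0.91, adjusted p = 0.0132). The fitted fold is set by the prior count, since 2 PKO libraries held no count. Rpl34 itself ran the other way, at 82.2, 46.4 and 30.1 CPM in DKO and 154, 383 and 355 CPM in PKO. Summed over the parent gene and the copy, the level was 554, 342 and 202 CPM in DKO and 154, 383 and 355 CPM in PKO, and the groups overlapped. The near-identical pair shares reads, so the split between the 2 genes, on which the only call rests, is uncertain. In young epidermis Rpl34-ps1 was at 134, 0 and 132 CPM in PKO young 1 to 3 and at 313, 236 and 38.98 CPM in DKO young 1 to 3, so a level of 0 also occurred in 1 PKO library outside the tumours.

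At an unadjusted p under 0.05, 806 genes (4.88% of those tested) were higher in DKO and 532 (3.22%) were lower. Every DKO library lay above every PKO library for 1234 genes (7.47%) and below for 981 (5.94%). These counts depend on the scaling, and with counts divided by the library total alone they were 690 and 2587. Over all genes tested the median log2 fold change was -0.03, with 47.4% of the genes positive. The genes described next did not pass the adjusted threshold in this fit, and their values are descriptions of these 6 libraries. The number of calls depended on the tool, since DESeq2, on the same genes and libraries, called 175 higher and 25 lower. Among them were all 24 genes that the naming rule took. Those genes had been chosen by small edgeR p and no overlap in the same libraries, so their calls in DESeq2 are no independent support. With all 20 libraries in the edgeR fit, 2 genes were called, Cst6 and Cxcl12, both at an adjusted p of 0.0187, and Rpl34-ps1 was not.

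Among the 518 genes that the naming rule could take as higher in DKO, Cst6 (ENSMUSG00000024846), an inhibitor of cysteine proteases in the cornifying epidermis and hair follicle, had the smallest p. Cst6 was at 129, 129 and 376 CPM in DKO, 2.63, 2.84 and 7.78 CPM in PKO and 39.3 and 25.3 CPM in WT old. The lowest DKO library was far above the highest PKO library, WT old lay between, and the log2 fold change was 5.50 (SE 0.69, adjusted p = 0.392). Klk7, a serine protease that cuts the junctions of cornified cells, was at 54.6, 44.8 and 99.4 CPM in DKO and 6.86, 2.96 and 7.03 CPM in PKO. Krt25, which encodes an inner root sheath keratin of the hair, was at 7.85, 12.2 and 5.98 CPM in DKO and 0.949, 0.348 and 0.922 CPM in PKO, with WT old at 14.4 and 22.996 CPM. Cst6 and Klk7 belong to cornification and Krt25 to the hair follicle, and Krt25 in the DKO tumours did not reach the WT old level.

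Of the other genes named as higher, the chemokine Cxcl12 was at 64.7, 16.9 and 56.005 CPM in DKO and 2.26, 4.405 and 3.92 CPM in PKO. The receptor Notch3 (ENSMUSG00000038146) was at 43.8, 54.6 and 128 CPM in DKO, 7.59, 12.6 and 10.7 CPM in PKO and 159.7 and 100.3 CPM in WT old. Il31ra, a subunit of the receptor for the itch cytokine interleukin 31, was at 21.8, 4.48 and 1.61 CPM in DKO and at most 0.116 CPM in PKO, where it rested on 0 to 2 counts. For Il31ra the DKO libraries differed among themselves more than for the other 2, with DKO cSCC 1 highest. Dusp5, a nuclear phosphatase of ERK kinases, was at 8.81, 12.4 and 13.6 CPM against 2.19, 2.09 and 3.97 CPM in PKO, and WT old, at 11.7 and 11.99 CPM, lay with DKO. Lmo7, an actin-linked protein of adherens junctions, was at 30.1, 13.5 and 46.6 CPM against 3.14, 4.81 and 2.25 CPM, and the Ras-binding protein gene Rassf5 at 17.6, 12.4 and 16.9 CPM against 4.96, 4.405 and 5.93 CPM. Clstn3, a calsyntenin of the cadherin superfamily, and Hspa2, an Hsp70 chaperone, had log2 fold changes of 3.44 and 1.91. Over the 12 genes the log2 fold changes ran from 1.56 (Rassf5) to 6.67 (Il31ra) and the edgeR adjusted p from 0.392 to 0.608.

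Of the 804 genes that could be taken as lower, 12 were named. Eno1 (ENSMUSG00000063524), the glycolytic enolase, was at 276, 336 and 317 CPM in DKO, 724, 715 and 794 CPM in PKO and 149 and 185 CPM in WT old. The 3 libraries of each group lay close together, DKO stood between WT old and PKO, and the log2 fold change was -1.32 (SE 0.24, adjusted p = 0.608). Gpi1, which turns glucose 6-phosphate into fructose 6-phosphate, was at 89.9, 126 and 133 CPM in DKO and 216, 215 and 204 CPM in PKO, and WT old, at 98.6 and 114 CPM, lay with DKO. H6pd, which oxidises hexose 6-phosphate in the endoplasmic reticulum, was at 17.99, 7.65 and 14.8 CPM against 60.4, 92.3 and 38.9 CPM in PKO, and Pgm1, of the phosphoglucomutase family, at 21.3, 22.9 and 17.2 CPM against 42.6, 57.96 and 52.9 CPM. These 4 genes were lower in each DKO library than in each PKO library by the way they were chosen.

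Acot7, an acyl-CoA thioesterase, was at 15.8, 11.4 and 10.7 CPM in DKO and 26.3, 68.7 and 36.6 CPM in PKO, with PKO cSCC 2 highest. Ids, a lysosomal sulfatase, was at 18.9, 30.4 and 22.7 CPM against 47.7, 57.3 and 52.5 CPM in PKO, and the iron transporter gene Slc11a2 at 9.18, 13.8 and 8.56 CPM against 22.7, 22.4 and 23.4 CPM. Hspa4l, a chaperone of the Hsp110 family, was at 64.7, 58.8 and 48.1 CPM against 114, 88.9 and 142 CPM. Erich3 was at 1.92, 1.005 and 1.43 CPM against 7.74, 8.06 and 6.797 CPM in PKO, and WT old, at 0.164 and 0.683 CPM, lay below both. Pcdhgc3, of the gamma protocadherin cluster, whose members share exons and so reads, had a log2 fold change of -1.01. Wwox completes the list. Vcp-rs, a copy of the chaperone gene Vcp, was at 5.92, 5.796 and 7.05 CPM in DKO and 86.1, 86.4 and 146 CPM in PKO. Vcp itself was at 300.3, 397 and 291 CPM in DKO and 374, 407 and 327 CPM in PKO, and reads may be split between the 2. In young epidermis Vcp-rs was at 3.44, 4.93 and 87.8 CPM in DKO young 1 to 3 and 88.8, 82.3 and 54.8 CPM in PKO young 1 to 3, so DKO young 3 alone lay with PKO. DKO young 3 is a library whose Wwox (7.34 CPM) and Trp53 (21.1 CPM) go against its label, and Trp53 goes against the label in PKO young 2 and 3 as well. In WT old Vcp-rs differed between the 2 libraries, at 36.8 and 3.72 CPM. Over the 12 genes the log2 fold changes ran from -4.15 (Vcp-rs) to -0.93 (Gpi1), with an edgeR adjusted p of 0.608 for each.

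**Figure D1:**
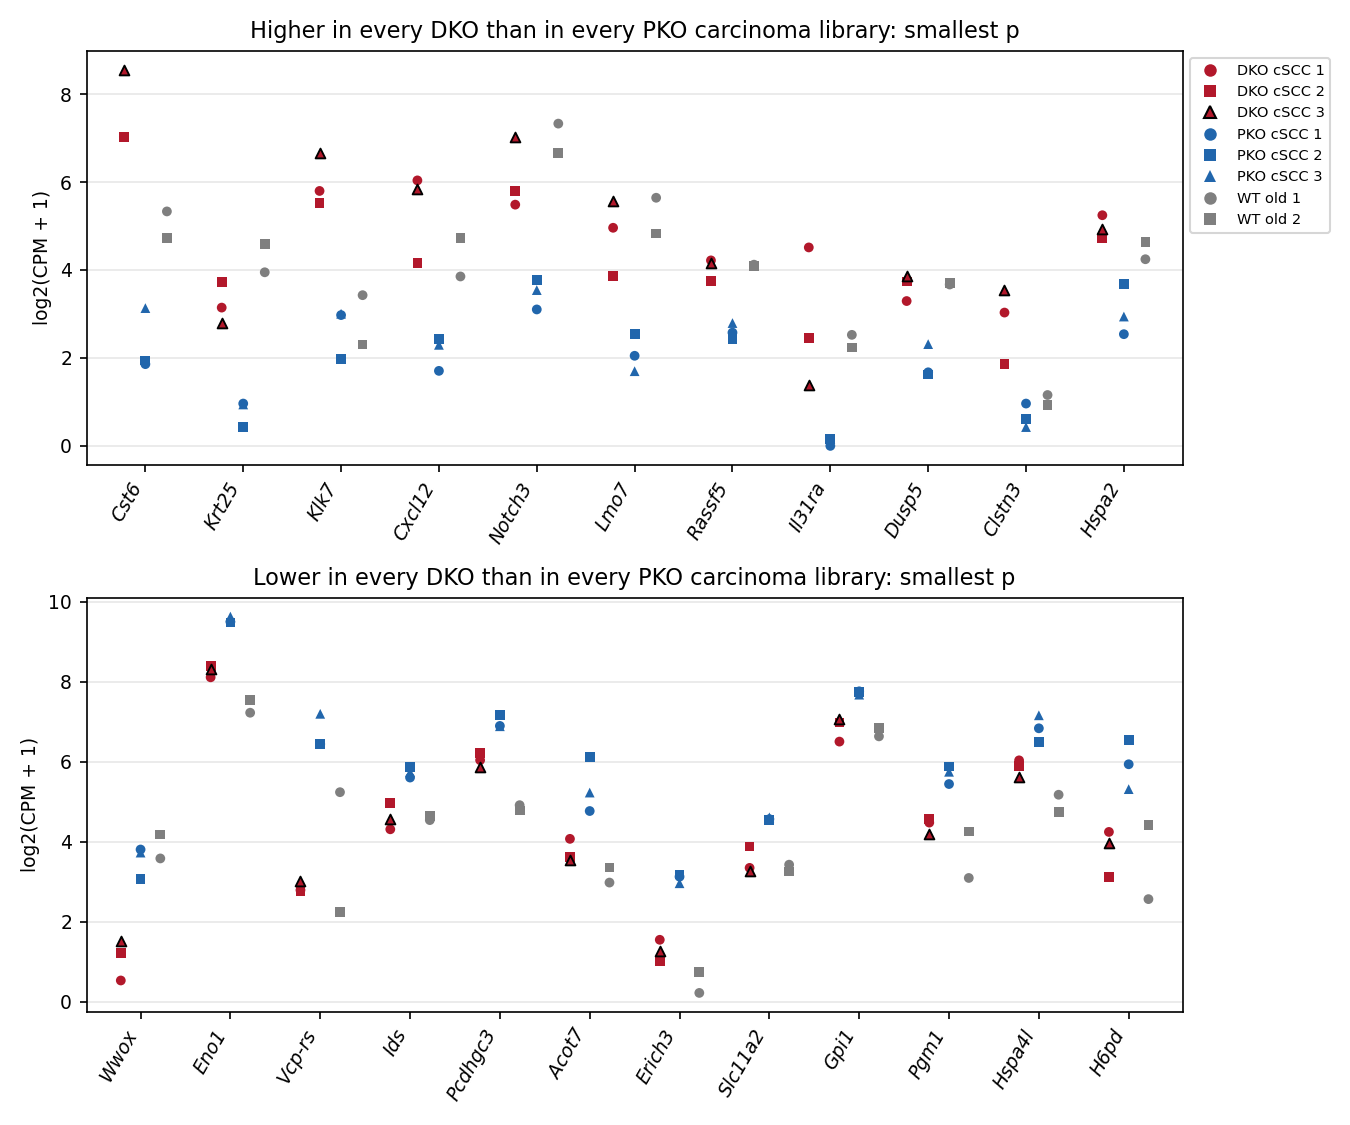
Level of 11 of the 12 genes taken as higher (top) and the 12 taken as lower (bottom) in DKO than in PKO carcinomas, as log2(CPM + 1) on the vertical axis, with 1 point per library and no averaging. Red points are DKO (the library labelled DKO cSCC 3 outlined in black), blue PKO and grey WT old. In each column the red and blue points do not overlap, by the rule that chose the genes, and Eno1 shows 3 red points at 276 to 336 CPM under 3 blue points at 715 to 794 CPM.

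No glycolysis gene passed the adjusted threshold, and most of them had lower levels in the DKO than in the PKO libraries. Of 20 glycolysis genes, all tested, 18 had a negative log2 fold change and the median was -0.78. At an unadjusted p under 0.05, 6 were lower and 0 higher, where 3.22% of all genes were lower, and 9 lay lower without overlap, where 5.94% of all genes did. The 6 were Eno1 and Gpi1, described above, the triosephosphate isomerase Tpi1, the phosphoglycerate kinase Pgk1, the glyceraldehyde 3-phosphate dehydrogenase Gapdh and the liver-type phosphofructokinase Pfkl. Tpi1 was at 136, 146 and 79.01 CPM in DKO and 190.02, 224 and 276 CPM in PKO. Pgk1 was at 164, 179 and 66.5 CPM in DKO and 272, 288 and 259 CPM in PKO. Gapdh was at 619, 879 and 341 CPM in DKO and 1099.96, 1701 and 1239 CPM in PKO. In these 3 genes the library labelled DKO cSCC 3 was the lowest of the 6. Without it the median of the list was -0.56 and 9 genes lay lower without overlap, where 8.83% of all genes did. Summed over the list, the level was 3336, 4832 and 2389 CPM in DKO cSCC 1 to 3, 6159, 6323 and 6351 CPM in PKO cSCC 1 to 3 and 1302 and 1817 CPM in WT old, so DKO lay between WT old and PKO. The 2 genes with a positive fold change were Eno2 (1.13) and Pfkfb4 (0.14).

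Of 21 hypoxia response genes, 20 had a negative log2 fold change and the median was -0.63. At an unadjusted p under 0.05, 5 were lower and 0 higher, where 3.22% of all genes were lower, and 3 lay lower without overlap, where 5.94% of all genes did. Hif1a, the oxygen-regulated subunit of the hypoxia factor, was at 236, 307 and 93.5 CPM in DKO and 390.4, 346 and 671 CPM in PKO, with the library labelled DKO cSCC 3 lowest. The collagen prolyl hydroxylase P4ha1 was at 58.9, 62.5 and 32.5 CPM against 93.4, 99.5 and 76.7 CPM in PKO, and the mitophagy receptor gene Bnip3l at 68.02, 66.8 and 52.5 CPM against 130.2, 78.9 and 81.8 CPM. The collagen lysyl hydroxylase Plod2, at 2.52, 4.64 and 1.87 CPM against 13.9, 168 and 2.71 CPM, overlapped and was high in PKO cSCC 2. With the third DKO library left out, the median was -0.32, closer to that of all genes. NRF2 and glutathione genes, which handle oxidative stress, had 17 of 21 negative and a median of -0.53, which was -0.31 without that library. One of them was lower and 0 higher at an unadjusted p under 0.05, close to the 3.22% of all genes. That gene, the glutathione peroxidase Gpx2, was at 12.1, 11.5 and 8.03 CPM in DKO and 11.8, 73.03 and 19.7 CPM in PKO, and the groups overlapped.

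Promoter sequences of the glycolysis genes are shown because 18 of the 20 had a negative fold change. Another reason is that ACGTG is among the cores at which the hypoxia factor binds DNA. The promoters are those of RefSeq on GRCm38.p6, 250 bases before to 50 bases after each annotated start, and all 20 genes matched. In the lines below, capitals mark ACGTG on either strand, which reads CACGT when it lies on the opposite one.
Eno1, chr4:150236947-150237246, plus strand: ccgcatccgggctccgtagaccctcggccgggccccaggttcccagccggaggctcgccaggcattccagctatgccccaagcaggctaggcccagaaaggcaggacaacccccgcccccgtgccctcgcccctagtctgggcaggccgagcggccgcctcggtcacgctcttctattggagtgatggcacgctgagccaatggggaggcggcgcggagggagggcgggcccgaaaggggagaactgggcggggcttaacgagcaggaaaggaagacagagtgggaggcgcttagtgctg
Gpi1, chr7:34230287-34230586, minus strand: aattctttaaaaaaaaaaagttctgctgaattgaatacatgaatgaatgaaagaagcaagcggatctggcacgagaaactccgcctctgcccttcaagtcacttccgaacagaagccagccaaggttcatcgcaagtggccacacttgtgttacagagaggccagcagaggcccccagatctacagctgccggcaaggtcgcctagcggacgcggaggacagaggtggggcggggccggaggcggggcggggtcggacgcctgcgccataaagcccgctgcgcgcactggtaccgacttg
Pgk1, chrX:106186850-106187149, plus strand: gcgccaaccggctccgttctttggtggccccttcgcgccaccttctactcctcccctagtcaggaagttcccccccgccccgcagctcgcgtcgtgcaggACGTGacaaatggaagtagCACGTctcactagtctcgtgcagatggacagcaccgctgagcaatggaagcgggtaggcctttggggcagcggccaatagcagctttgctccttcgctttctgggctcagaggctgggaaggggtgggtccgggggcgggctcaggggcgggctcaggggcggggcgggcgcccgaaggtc
Gapdh, chr6:125165724-125166023, minus strand: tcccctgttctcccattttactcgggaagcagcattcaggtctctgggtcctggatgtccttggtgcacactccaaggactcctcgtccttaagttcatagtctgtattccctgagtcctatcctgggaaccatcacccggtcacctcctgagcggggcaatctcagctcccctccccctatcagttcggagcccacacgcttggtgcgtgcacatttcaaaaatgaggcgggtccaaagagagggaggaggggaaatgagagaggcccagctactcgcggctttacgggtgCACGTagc
The Pgk1 window held 2 matches and the Gapdh window 1, while the Gpi1 window and all 3 annotated Eno1 windows held 0. Over the list, 16 of 32 promoters (50%) held the motif, in 13 of 20 genes, against 60.9% of 23 promoters of hypoxia response genes and 19.6% of all 32851 promoters. Eno1 and Gpi1, which had the smallest p of the list, are thus among the genes without ACGTG in this window, as are Tpi1 and Pfkl. Only the letters ACGTG were searched, so other forms of the core were not counted in any of these windows. A match describes the letters and shows no binding.

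**Figure D2:**
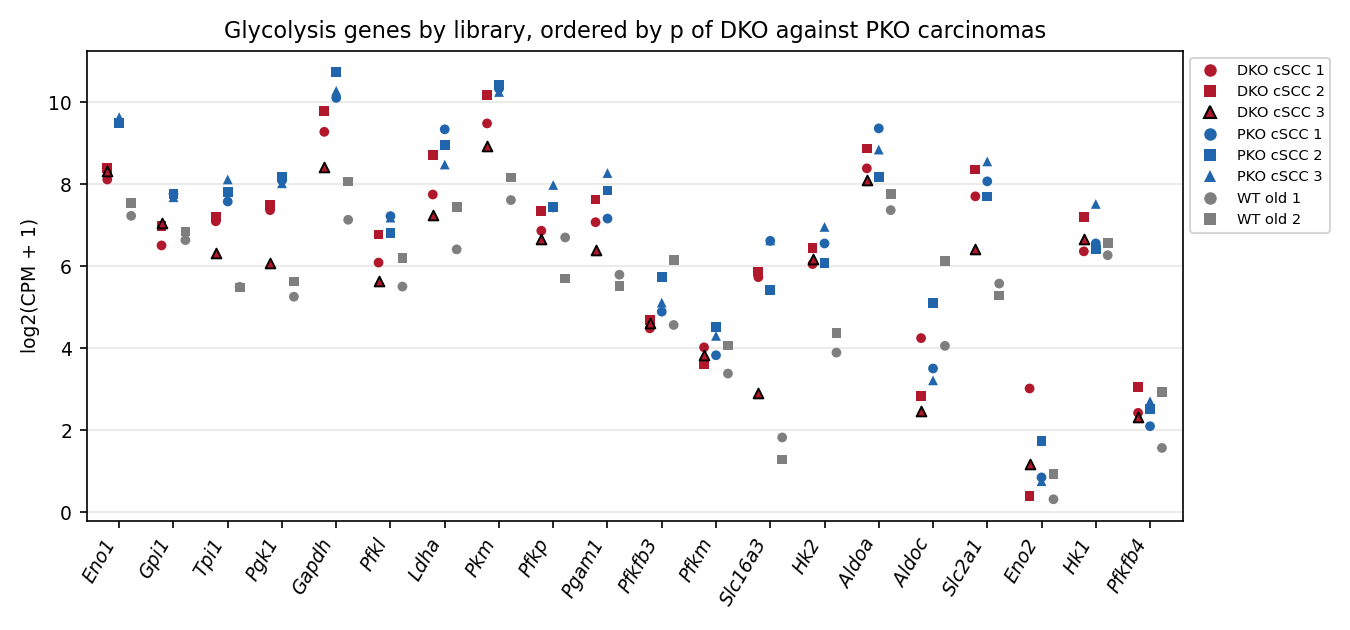
Level of the 20 glycolysis genes, as log2(CPM + 1), by library, ordered from left by p of DKO against PKO carcinomas. Points are single libraries coloured by group as in the legend, and for the 6 genes on the left every DKO point lies under every PKO point, whereas most genes on the right overlap.

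No hair follicle gene passed the adjusted threshold, and most had a positive fold change. Of 31 tested, 27 were positive and the median was 1.57. At an unadjusted p under 0.05, 12 were higher and 0 lower, where 4.88% of all genes were higher, and 10 lay higher without overlap, where 7.47% of all genes did. Krt75, a keratin of the companion layer, was at 151, 22.02 and 5.89 CPM in DKO and 1.17, 0.464 and 0.115 CPM in PKO. Krt28, of the inner root sheath, was at 16.5, 7.57 and 5.44 CPM in DKO and 0.73, 0.116 and 0 CPM in PKO, and the growth signal gene Shh at 2.22, 1.005 and 1.69 CPM against 0.146, 0.058 and 0 CPM. DKO cSCC 1 was the highest of the 6 for each of these 3, and most of these levels are low. Keratin family members are similar in sequence, which leaves the split of reads among them uncertain. Leaving out the library labelled DKO cSCC 3 gave a median of 1.85. The summed level of the list did not separate the groups, at 1231, 1488 and 3095 CPM in DKO cSCC 1 to 3, 1459.6, 445 and 575 CPM in PKO cSCC 1 to 3 and 1331 and 1094 CPM in WT old. In bulk samples, fewer cells of a type and less RNA per cell cannot be told apart.

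Of 20 Notch pathway genes tested, 15 had a positive fold change, with a median of 0.81, and 0 passed the adjusted threshold. Of the 20, 6 were higher and 0 lower at an unadjusted p under 0.05, where 4.88% of all genes were higher. For 9 of the 20 every DKO library lay above every PKO library, where 7.47% of all genes did. Among members with a mean of at least 10 CPM the median was 0.18. Of the receptors, Notch1 was at 179, 176 and 425 CPM in DKO, 51.1, 50.4 and 88.4 CPM in PKO and 367 and 320.3 CPM in WT old. Notch3, described above, had the smallest p of the list. Both receptors were lower in PKO than in WT old, with DKO 1 and 2 between. The ligand gene Dll4 was at 2.15, 3.25 and 7.22 CPM in DKO and 0, 0.116 and 0 CPM in PKO. Of the targets, Heyl was at 3.03, 6.26 and 5.89 CPM against 0.584, 0.869 and 0.0576 CPM in PKO, and Nrarp, an inhibitor that Notch induces, at 33.2, 33.5 and 40.9 CPM against 21.2, 3.304 and 8.64 CPM. With the third DKO library left out, the median was 0.69.

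Of 18 endothelial and mural markers tested, 17 were positive, with a median of 3.72. Of these markers, 14 were higher at an unadjusted p under 0.05, where 4.88% of all genes were, and 14 lay higher in DKO without overlap, where 7.47% of all genes did. The list includes Notch3, and Dll4 and Heyl are also expressed by vessels. The endothelial gene Eng was at 7.697, 9.04 and 48.2 CPM in DKO and 0.803, 0.869 and 0.691 CPM in PKO, Emcn at 1.18, 1.78 and 11.1 CPM against 0.073, 0.174 and 0.0576 CPM, Esam at 1.04, 2.86 and 22.9 CPM against 0.365, 0.116 and 0.173 CPM, and the von Willebrand factor gene Vwf at 7.401, 18.9 and 159 CPM against 2.701, 5.91 and 2.304 CPM. The library labelled DKO cSCC 3 was highest for all 4. The list summed to 237, 318 and 1078 CPM in DKO cSCC 1 to 3, 104, 327 and 61.3 CPM in PKO cSCC 1 to 3 and 222 and 316 CPM in WT old, so PKO cSCC 2 overlapped DKO in the sum, and no marker of the list was at 0 in all libraries of a group. Leaving out the library labelled DKO cSCC 3 gave a median of 2.54 and 14 did not overlap, where 12.1% of all genes were higher without overlap. The part of vessel cells in the Notch result was not tested.

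Wnt pathway genes as a whole had a median of 0.05, with 18 of 34 positive, and 4 were higher and 0 lower at an unadjusted p under 0.05, where 4.88% of all genes were higher. Without the library labelled DKO cSCC 3 the median was 0.13, again with 18 positive. Those 4 include feedback genes that Wnt signalling induces. The Wnt inhibitor Nkd1 was at 3.55, 3.4003 and 7.402 CPM in DKO and 0.292, 0.522 and 0 CPM in PKO, and Axin2, a negative regulator and common readout of the pathway, at 49.1, 40.6 and 54.5 CPM against 17.1, 16.7 and 25.5 CPM. The ligand gene Wnt10b was at 7.48, 4.405 and 3.12 CPM against 1.68, 0.522 and 0.691 CPM, and Dkk2, a secreted modulator, at 1.18, 2.86 and 1.78 CPM against 0.511, 0.232 and 0.115 CPM. All 4 lay higher in every DKO library, but they were taken as the members with the smallest p. Of the 34 tested, 7 lay higher and 1 lower without overlap, where 7.47% and 5.94% of all genes did.

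**Figure D3:**
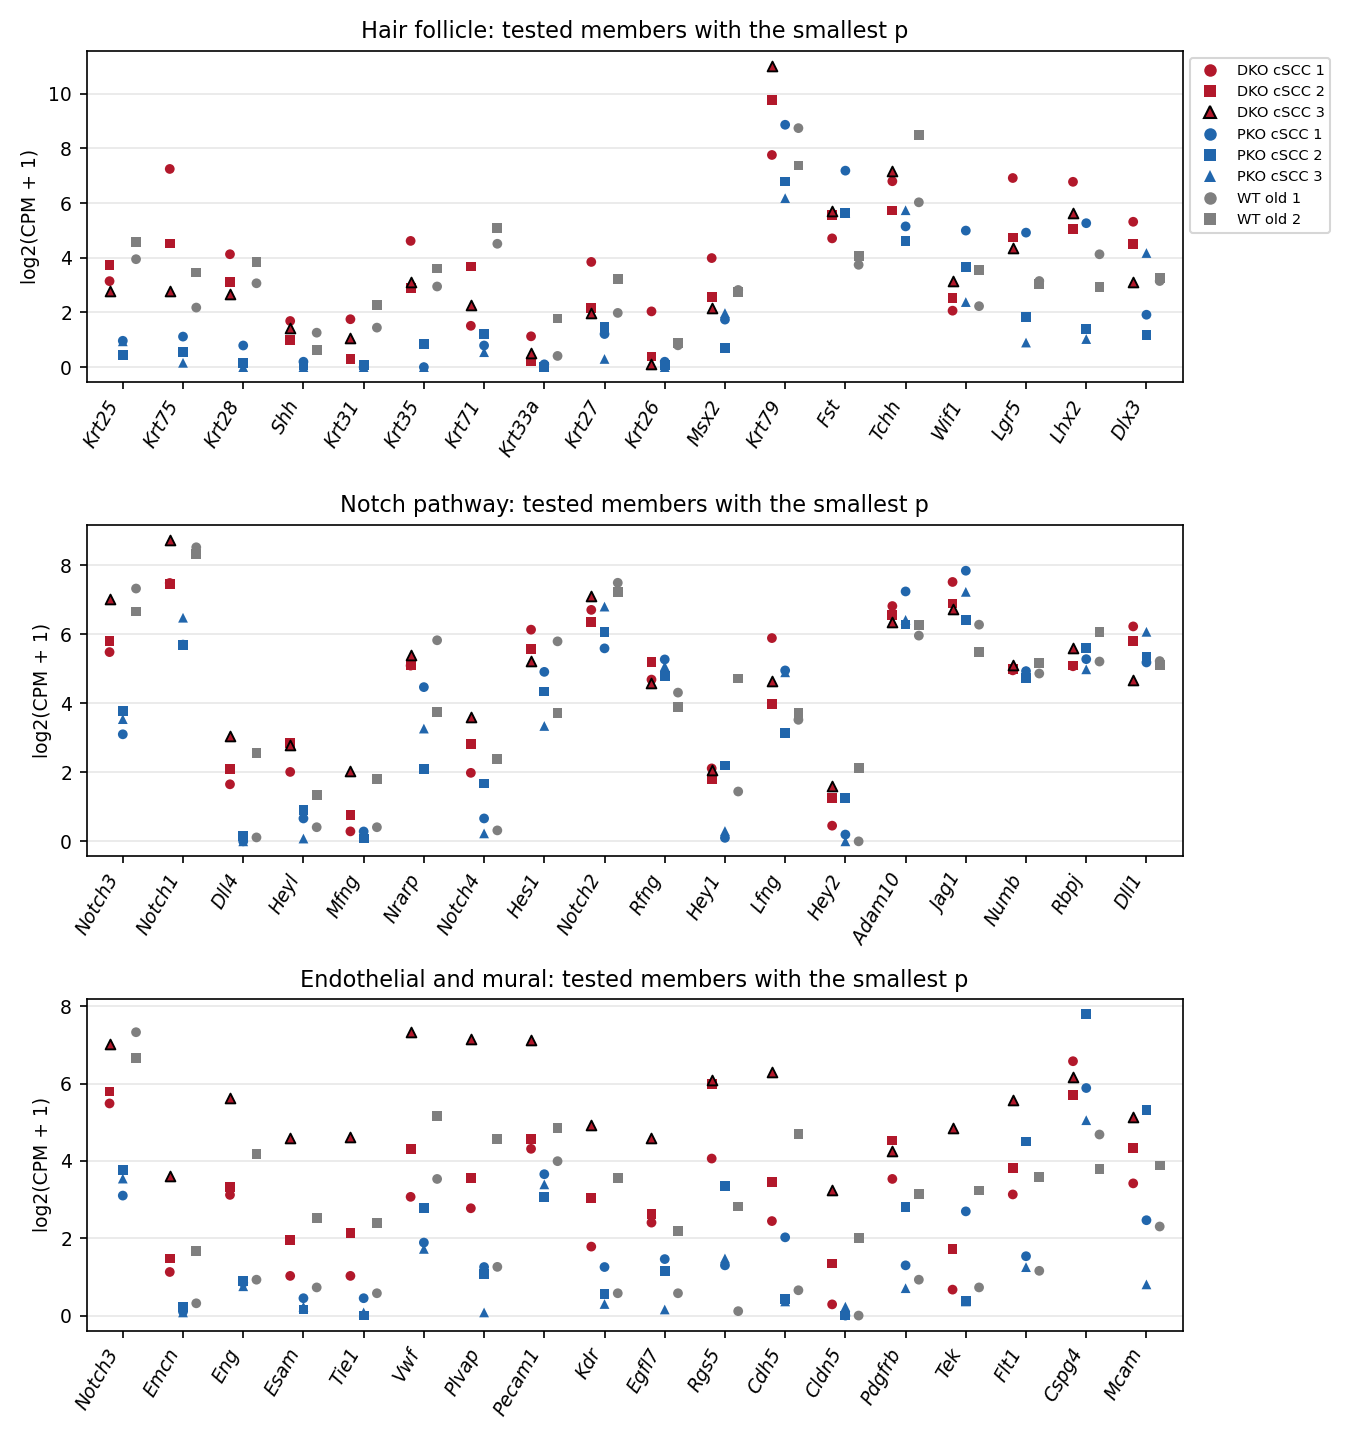
Level, as log2(CPM + 1), of up to 18 tested genes with the smallest p in 3 lists: hair follicle (top), Notch pathway (middle) and endothelial and mural markers (bottom), with 1 point per library coloured by group. Notch3, Notch1 and Dll4 separate the red DKO from the blue PKO points, and in the bottom panel the outlined triangle of the library labelled DKO cSCC 3 lies well above the other DKO points for Vwf, at 159 CPM.

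Differentiated keratinocyte genes, which build the cornified layers, showed a positive change in 30 of 37 and a median change of 1.30. At an unadjusted p under 0.05, 10 were higher and 0 lower, where 4.88% of all genes were higher, and 7 lay higher without overlap, where 7.47% did. Besides Cst6 and Klk7, the cornified envelope gene Sprr1a was at 17.3, 40.3 and 74.8 CPM in DKO and 2.19, 4.93 and 8.76 CPM in PKO, and the protease gene Klk6 at 5.403, 4.405 and 12.2 CPM against 1.09, 1.275 and 0.634 CPM. Much of the list went with 1 library. With the third DKO library left out, the median was 0.47, and the summed level was 1162, 3713 and 16396 CPM in DKO cSCC 1 to 3, 1288, 468 and 2939.7 CPM in PKO cSCC 1 to 3 and 13913 and 4656 CPM in WT old. DKO cSCC 1 and 2 thus lay within or near the PKO range, and the library labelled DKO cSCC 3 near WT old 1.

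Epithelial junction and identity genes showed a positive change in 30 of 41 and a median change of 0.31, with 2 higher and 0 lower at an unadjusted p under 0.05, which is near the 4.88% of all genes that were higher. The tight junction gene Cldn4 was at 8.81, 11.6 and 6.78 CPM in DKO and 0.146, 2.26 and 1.38 CPM in PKO. Another tight junction gene, Ocln, was at 15.2, 5.18 and 13.4 CPM against 1.17, 2.03 and 5.53 CPM and overlapped, since DKO cSCC 2 lay under PKO cSCC 3. The transcription factor gene Grhl1 and the tricellular junction gene Marveld2 had log2 fold changes of 1.32 and 1.17. Basal keratinocyte genes had a median of 0.024 over 16 genes, 9 of them positive, and -0.18 to 0.29 on leaving out 1 library. The cytolinker gene Dst, at 1746, 999.9 and 1665 CPM against 864, 623 and 613 CPM, lay higher in DKO, and the adhesion receptor gene Itgb1 lower, at 314, 313 and 176 CPM against 356, 750.3 and 356 CPM. Wound keratinocyte genes had 10 of 14 negative and a median of -0.33. Without the library labelled DKO cSCC 3 it was -0.091, with 8 of 14 negative, and without PKO cSCC 3 it was 0.34. The iron-binding protein gene Lcn2, at 14.8, 17.4 and 1.25 CPM in DKO and 57.3, 1196 and 64.8 CPM in PKO, lay lower without overlap, and PKO cSCC 2 held by far the most.

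For the EMT that the series title names, the lists did not separate the tumours. Of 9 EMT transcription factors tested, 5 were positive, 0 passed an unadjusted p of 0.05 in either direction, and the median was 0.22 with the library labelled DKO cSCC 3 and -0.029 without it. Snai2, a repressor of junction genes, was at 70.6, 53.5 and 28.5 CPM in DKO and 57.01, 54.3 and 73.9 CPM in PKO, and Twist1 at 1.702, 5.18 and 2.23 CPM against 0.073, 4.29 and 0.576 CPM. Both overlapped. Tcf4, with the smallest p of the list, was at 41.4, 37.02 and 68.2 CPM against 58.4, 72.6 and 73.7 CPM and had a log2 fold change of -0.55, and Foxc2, which lay higher in DKO without overlap, was under 3 CPM in every library. Mesenchymal genes had 24 of 34 negative, a median of -0.41 and 0 genes at an unadjusted p under 0.05.

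The median of the mesenchymal genes changed sign on leaving out PKO cSCC 2, to 1.44, and stayed between -0.67 and -0.32 on leaving out any other tumour library. That of the EMT transcription factors was 2.52 without PKO cSCC 2. Fibronectin (Fn1) was at 144, 118 and 64.5 CPM in DKO and 57.3, 7515 and 4.44 CPM in PKO, and the crosslinking enzyme gene Lox at 1.48, 1.16 and 1.52 CPM against 0.511, 134 and 0 CPM. In both genes PKO cSCC 2 was far above every other tumour, while PKO cSCC 1 and 3 lay below all 3 DKO libraries. The log2 fold change of Fn1 was -4.62 with PKO cSCC 2 and 1.82 without it, and that of Lox was -5.09 and 2.43. Without both PKO cSCC 2 and the library labelled DKO cSCC 3, a choice made after the data were seen, the median of the 34 genes was 1.54, and that of the EMT transcription factors 2.53. The matricellular gene Postn, at 76.2, 486 and 439 CPM against 406, 1287 and 909 CPM, and the hyaluronan receptor gene Cd44, at 303, 393 and 318 CPM against 826, 306 and 508 CPM, overlapped. The collagen gene Col1a1 ran the other way and did not overlap, at 369.8, 362 and 153 CPM in DKO and 58.5, 144 and 12.5 CPM in PKO. Fibroblast markers, which include Col1a1, summed to 909, 1129 and 563 CPM in DKO cSCC 1 to 3, 323, 1138 and 111 CPM in PKO cSCC 1 to 3 and 182 and 629 CPM in WT old. Of 11 tested, 8 were positive and the median was 0.73, which was 3.38 without PKO cSCC 2. Pi16, Dpt and Col3a1, also of that list, had log2 fold changes of 4.05, 3.31 and 1.91. The part of fibroblasts in the mesenchymal result was not tested.

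PKO cSCC 2 also carried genes of cartilage. It held 173 genes with at least 20 CPM that were 2 or more log2 units above the next tumour, against 1 to 91 in the other 5 tumour libraries, on the log2(CPM + 1) scale. The 5 with the widest gap were Cnmd at 867 CPM, Col9a2 at 846 CPM, Acan at 1122 CPM, Col2a1 at 3225 CPM and Serpina3n at 3270.2 CPM, none above 7.26 CPM in another tumour. Cnmd, an inhibitor of vessel growth, Acan, the aggrecan core protein, and the collagens Col9a2 and Col2a1 are components of cartilage. A list of 12 cartilage matrix genes put together after these values were seen summed to 11163 CPM in PKO cSCC 2 and to at most 17.7 CPM in another tumour. Over the other 19 libraries the highest sum was 281 CPM, in WT old 2. Sox9, the transcription factor of cartilage and of hair follicles, was at 203, 56.05 and 173 CPM in PKO and 114, 114 and 261 CPM in DKO, lowest in PKO cSCC 2. In the same library Sox10, a factor of melanocytes and Schwann cells, was at 391 CPM, and the simple epithelial keratin Krt8 at 88.6 CPM, against at most 26.04 and 2.37 CPM in another tumour. Krt8 was at 51.3 and 259 CPM in WT old and at 12.3 to 116 CPM in DKO and PKO young. Its level in PKO cSCC 2 thus lay within the range of these epidermis libraries. Keratinocyte genes were present too, with Krt14 at 3766 CPM.

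The library labelled DKO cSCC 3 had 91 such genes. Among the 5 with the widest gap were the filaggrins Flg at 4768 CPM and Flg2 at 115 CPM, Fabp4, a lipid carrier of adipocytes and endothelium, at 62.2 CPM, and the fatty acid hydroxylase Fa2h at 159 CPM. No other tumour exceeded 55.1 CPM of Flg or 4.53 CPM of Flg2, Fabp4 or Fa2h. In WT old, Fabp4 was at 3.12 and 84.01 CPM and Fa2h at 15.7 and 10.5 CPM. DKO cSCC 1 had 17 such genes, led by Bex1 at 73.9 CPM, Prss35 at 93.1 CPM, the monocarboxylate transporter Slc16a7 at 118 CPM, the guidance factor gene Ntn1 at 62.2 CPM and Tceal3 at 26.5 CPM. PKO cSCC 1 had 11, led by the Ras-like Rerg at 77.7 CPM, with Hephl1 at 82.9 CPM, the phosphate transporter gene Slc34a2 at 26.7 CPM and Cacna2d2 at 24.7 CPM. PKO cSCC 3 had 2, the cytokine Tslp at 105 CPM and the organic anion transporter gene Slco2b1 at 118 CPM. DKO cSCC 2 had 1, Serpinb3b at 32.3 CPM. By this measure DKO cSCC 2 and PKO cSCC 3 stood least apart.

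**Figure D4:**
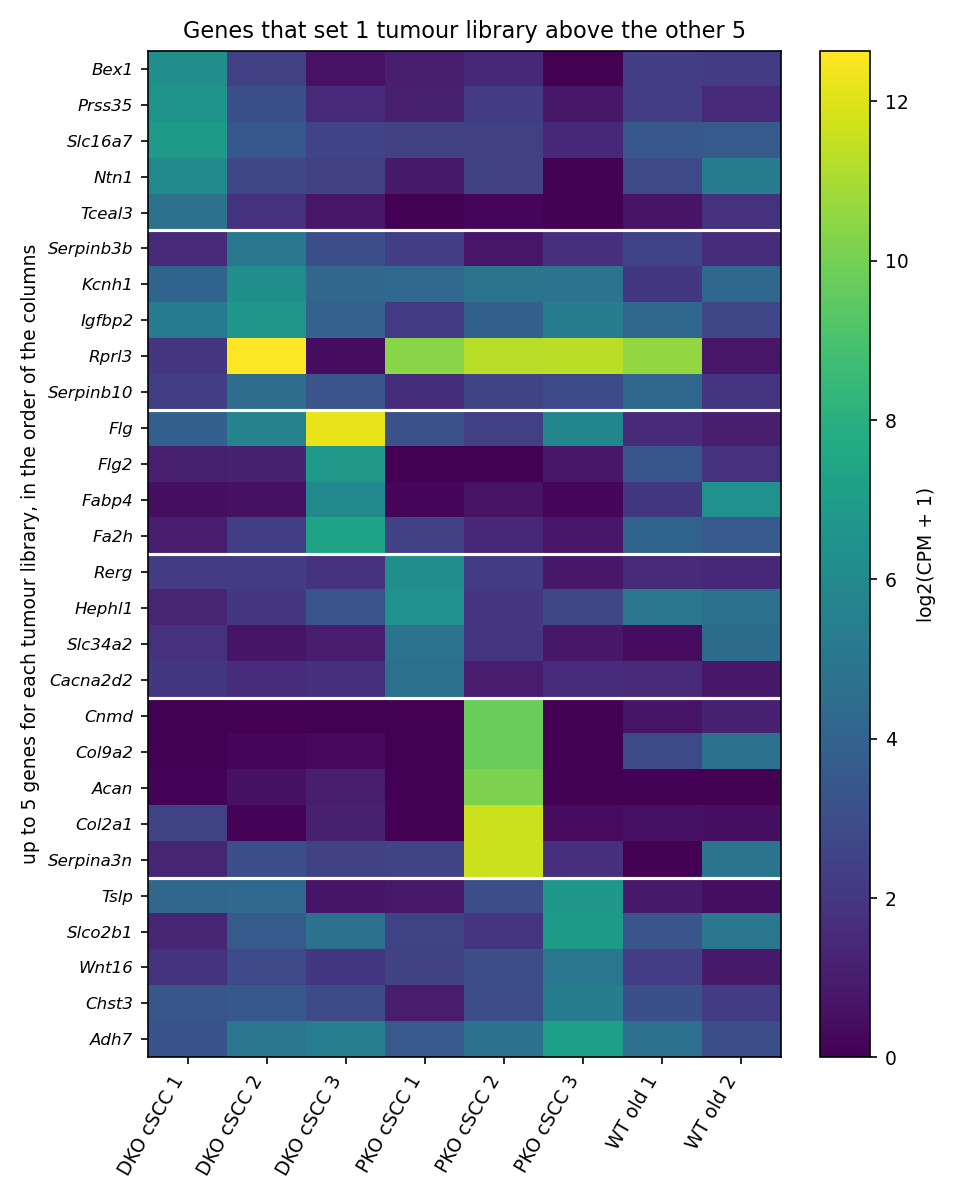
Colour shows log2(CPM + 1) in each of 6 tumour and 2 WT old libraries (columns) for the genes, up to 5, with the widest gap above the next tumour in each tumour library (rows, in blocks). The block of PKO cSCC 2 is by far brightest in that column, with Col2a1 at 3225 CPM. In WT old 2, Col9a2 reaches 26.6 CPM and Serpina3n 28.0 CPM. The block of the library labelled DKO cSCC 3 is led by Flg at 4768 CPM.

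Of the lists for growth and p53, cell cycle genes had 35 of 40 negative and a median of -0.35, with 1 lower and 0 higher at an unadjusted p under 0.05, where 3.22% of all genes were lower, and 0 without overlap. The median of the cell cycle list was -0.18 without the library labelled DKO cSCC 3, with 28 of 40 negative, and -0.04 without PKO cSCC 1. The 1 lower gene, cyclin A2 (Ccna2), was at 21.4, 21.8 and 19.98 CPM in DKO and 56.4, 20.3 and 35.3 CPM in PKO, where PKO cSCC 2 lay with DKO. Targets of p53 had 18 of 30 positive, a median of 0.095 and 0 at an unadjusted p under 0.05 in either direction. Trp53 was detected in all 3 DKO libraries and was above the WT old range in 1 of them. Bbc3 and Btg2, both p53 targets, were higher in every DKO library, with log2 fold changes of 0.91 and 0.87. Tigar, another p53 target, was lower, at -0.79. Of the 30 targets, 3 lay higher and 1 lower without overlap, near the 7.47% and 5.94% of all genes that did. Genes of proteins that bind Wwox had 9 of 13 negative and a median of -0.35, which was -0.06 without PKO cSCC 1, with Hif1a the only 1 at an unadjusted p under 0.05. The ubiquitin ligase Itch of that list was at 38.4, 35.5 and 39.6 CPM in DKO and 43.1, 55.99 and 44.1 CPM in PKO.

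Immediate early and heat shock genes, which respond to stress and also to tissue dissociation, showed a positive change in 20 of 23 and a median change of 0.80, with 5 higher and 0 lower at an unadjusted p under 0.05, where 4.88% of all genes were higher. With all 6 libraries, 7 of the 23 lay higher without overlap, where 7.47% of all genes did, and without the library labelled DKO cSCC 3 it was 13, where 12.1% did. The phosphatase gene Dusp1 was at 129, 146 and 98.3 CPM in DKO and 12.5, 54.7 and 43.1 CPM in PKO. The transcription factor gene Jund was at 205, 273 and 184 CPM against 102, 112 and 167 CPM. The near-identical Hsp70 genes Hspa1a and Hspa1b, which share reads, had log2 fold changes of 0.90 and 0.80. WT old reached or passed the DKO level for Dusp1 in 1 of its 2 libraries, at 231 and 74.5 CPM. The part of handling during dissociation was not tested.

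The TGF-beta pathway had a median of 0.099, with 18 of 24 positive, and -0.02 to 0.22 on leaving out 1 library. Id2, a target of BMP signals, at 41.6, 30.7 and 26.5 CPM in DKO and 7.59, 16.3 and 10.9 CPM in PKO, and the feedback inhibitor Smad7, at 62.5, 43.9 and 30.6 CPM against 24.5, 18.8 and 28.5 CPM, did not overlap, while the ligand gene Tgfb2, at 13.1, 10.9 and 9.81 CPM against 137, 23.5 and 4.55 CPM, did. Matrix proteases and their inhibitors showed a positive change in 12 of 18 and a median change of 0.49 (0.075 to 0.82 on leaving out 1 library), led by the plasminogen activator Plat at 15.7, 10.5 and 16.7 CPM against 8.39, 8.11 and 6.28 CPM and Mmp15 at 17.8, 30.2 and 36.2 CPM against 6.205, 16.9 and 14.1 CPM. Of the EGF receptor family, 9 of 15 were positive, with a median of 0.30, and 0.11 to 0.80 on leaving out 1 library. Egfr itself was at 223, 107 and 114 CPM in DKO and 72.5, 72.4 and 89.9 CPM in PKO, without overlap, and its ligand gene Tgfa ran the other way, at 17.6, 13.9 and 10.2 CPM against 24.5, 21.6 and 17.7 CPM. Chemokines and cytokines showed a positive change in 15 of 26 and a median change of 0.044, and -0.14 to 0.26 on leaving out 1 library, with Cxcl12 the only 1 at an unadjusted p under 0.05. The cytokine gene Tnf was at 24.9, 24.7 and 16.9 CPM in DKO and 14.1, 4.405 and 1.498 CPM in PKO, without overlap. Interferon-stimulated genes showed a positive change in 13 of 29 and a median change of -0.11, and lipid and sebaceous genes 13 of 22 and 0.15. Without the library labelled DKO cSCC 3 both medians changed sign, to 0.093 with 16 of 29 positive and to -0.12 with 9 of 22 positive. The cholesterol synthesis enzyme Sqle of the lipid list lay lower, at 32.2, 39.95 and 46.8 CPM against 87.5, 121 and 54.1 CPM.

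Markers of other cell types were mostly higher in the library labelled DKO cSCC 3. T and NK cell markers summed to 25.5, 41.04 and 111 CPM in DKO cSCC 1 to 3, 68.4, 12.5 and 10.6 CPM in PKO cSCC 1 to 3 and 154 and 391 CPM in WT old. Of 13 tested, 11 were positive, and the median was 2.24, or 1.17 without that library. Macrophage, monocyte and neutrophil markers had 12 of 12 positive, with a median of 1.37 and 0.49 without it, and summed to 68.4, 104 and 388 CPM in DKO cSCC 1 to 3, 123, 46.7 and 20.6 CPM in PKO cSCC 1 to 3 and 12.9 and 1071 CPM in WT old. The neutrophil genes Ly6g and Retnlg were at 0 in all 3 PKO libraries. Langerhans and dendritic cell markers showed a positive change in 9 of 10 and medians of 1.20 and 0.054, and summed to 253, 725 and 2354 CPM in DKO cSCC 1 to 3, 485, 664 and 1041 CPM in PKO cSCC 1 to 3 and 192 and 2234 CPM in WT old. The Langerhans gene Cd207 was at 0.37, 4.02 and 47.6 CPM in DKO and 0.438, 0.464 and 0.346 CPM in PKO. Melanocyte and Schwann cell markers showed a positive change in 9 of 10 and a median change of 0.94, which was -2.17 without that library, and they summed to 37.2, 30.9 and 739 CPM in DKO cSCC 1 to 3, 209, 498 and 30.8 CPM in PKO cSCC 1 to 3 and 119.6 and 410.4 CPM in WT old. Muscle and adipocyte markers had 6 of 6 tested positive, with medians of 4.32 and 0.98, and summed to 6.74, 11.7 and 81.5 CPM in DKO cSCC 1 to 3, 3.94, 1.797 and 1.79 CPM in PKO cSCC 1 to 3 and 8.12 and 94.8 CPM in WT old. Of that list the adipocyte genes Cidec, Adipoq and Lep were at 0 in every PKO library and the muscle gene Myh4 in all 6. Erythrocyte markers summed to 0.962, 3.4003 and 16.1 CPM in DKO cSCC 1 to 3, 1.09, 3.01 and 1.27 CPM in PKO cSCC 1 to 3 and 16.5 and 63.98 CPM in WT old. Their median was 1.55, or 0.49 without the library labelled DKO cSCC 3. In the 5 other libraries the sums of these lists overlapped between the groups, except for muscle and adipocyte markers, where DKO cSCC 1 and 2 lay higher.

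Without the library labelled DKO cSCC 3, 1 gene of 16214 tested passed the adjusted threshold (0.00617%), again Rpl34-ps1. At an unadjusted edgeR p under 0.05, 494 were higher and 242 lower. Together these were 736 of the 16214 genes, against 1338 of 16526 with that library. The median over all genes was -0.05. Of the 6 genes then named as higher, Cst6, Krt25, Il31ra, Notch3 and Krt75 are described above. The sixth, Hexim1, an inhibitor of the elongation kinase P-TEFb, was at 134 and 111 CPM in DKO cSCC 1 and 2 and 45.2, 31.2 and 42.4 CPM in PKO, and at 45.6 CPM in the library left out. Of the 6 named as lower, Wwox and Eno1 recur. Igfbp4, which binds insulin-like growth factors, was at 77.4 and 50.1 CPM against 168, 166 and 167 CPM, and the death ligand gene Tnfsf10 at 2.59 and 4.25 CPM against 16.9, 15.2 and 10.02 CPM. In both genes the library left out also lay under PKO, at 130.5 and 7.76 CPM. Fam107a, at 0.074 and 0.155 CPM against 6.06, 5.97 and 6.34 CPM, and the delta-catenin gene Ctnnd2, at 3.26 and 5.796 CPM against 15.9, 14.1 and 12.2 CPM, were above every PKO library in the library left out, at 8.56 and 20.9 CPM. For these 2 genes the direction in DKO cSCC 1 and 2 was thus not shared by the third DKO library.

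**Figure D5:**
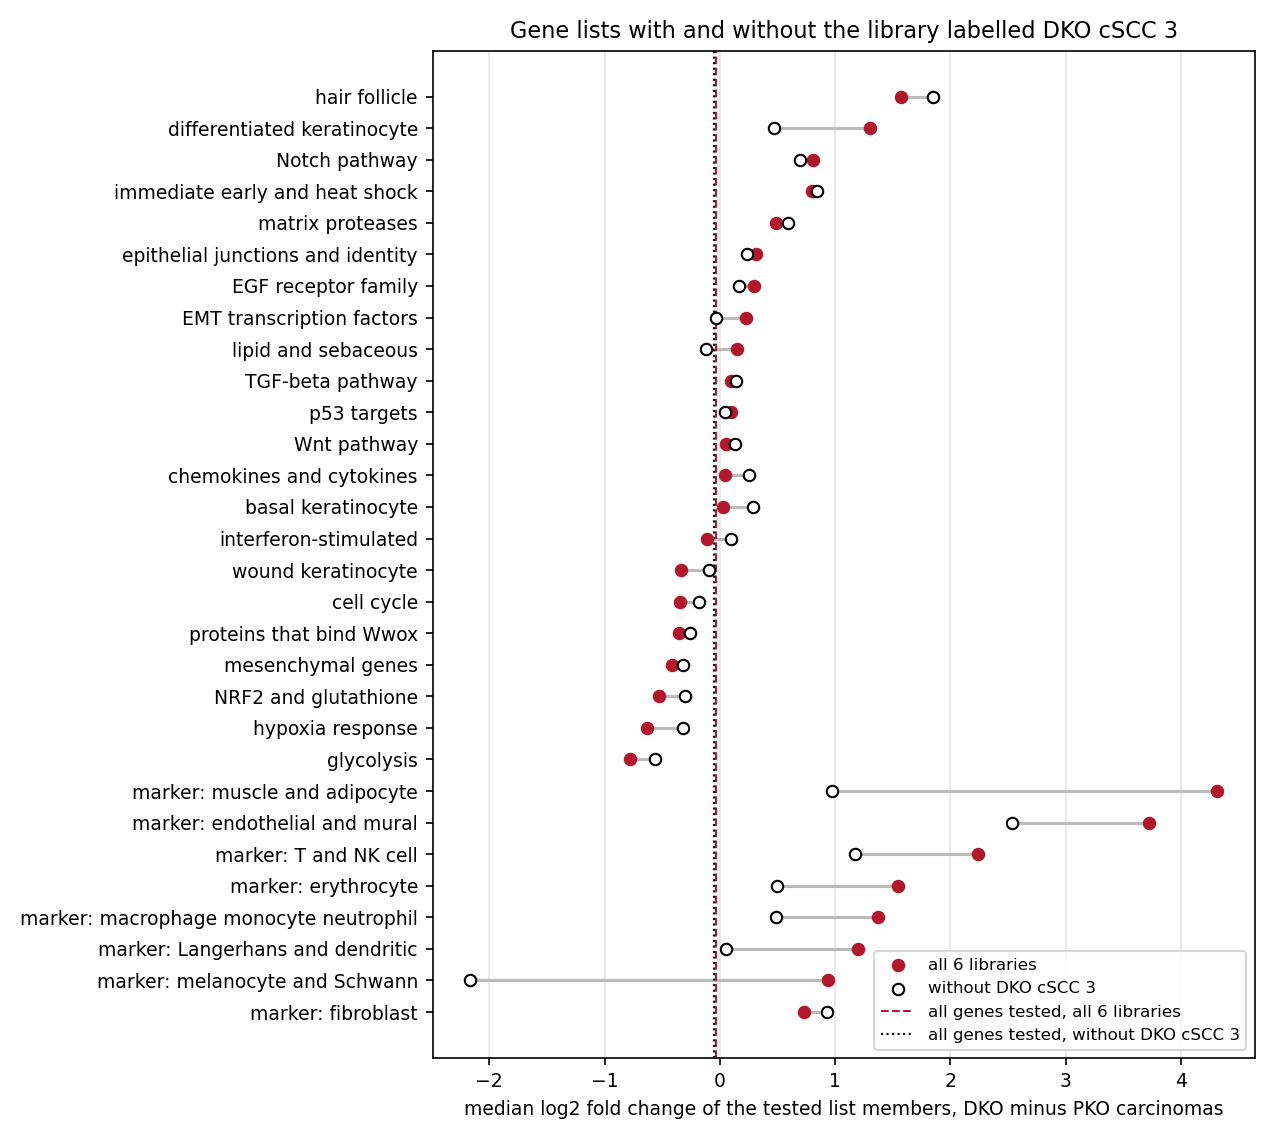
Median log2 fold change of DKO against PKO carcinomas over the tested members of each gene list (horizontal axis), with all 6 libraries (filled) and without the library labelled DKO cSCC 3 (open), and the medians of all genes tested as vertical lines. Glycolysis (-0.78 and -0.56) and hair follicle genes (1.57 and 1.85) kept their side, and melanocyte and Schwann markers crossed from 0.94 to -2.17.

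The contrast of DKO against PKO was also taken in young epidermis (100 to 120 days, n = 3 each), to ask whether it differed in the tumours. The difference of the 2 contrasts was past the adjusted threshold in 0 of 18164 genes in edgeR (0%), with a smallest adjusted p of 0.153, while 2296 genes had an unadjusted p under 0.05 and DESeq2 called 480. Nothing is therefore called particular to the tumours. Cst6 was at 177, 43.3 and 95.5 CPM in DKO young and 92.4, 88.4 and 33.1 CPM in PKO young, without the separation of the tumours. The difference between the contrasts for Cst6 was 5.01 on the log2 scale (SE 0.90, adjusted p = 0.153). Eno1 was at 265, 158 and 155 CPM in DKO young and 219, 183 and 175 CPM in PKO young, where the groups overlapped, and the difference was -1.26 (SE 0.33, adjusted p = 0.195). Cxcl12 was at 9.92, 14.5 and 20.4 CPM in DKO young and 20.8, 15.8 and 26.2 CPM in PKO young. These levels exceed the PKO tumours' 2.26, 4.405 and 3.92 CPM, and the difference for Cxcl12 was 4.18 (SE 0.67, adjusted p = 0.153). Wwox was 0.926, 0.943 and 7.34 CPM in DKO young 1 to 3, and Trp53 was 3.31, 3.26 and 21.1 CPM there and 5.901, 21.8 and 19.2 CPM in PKO young 1 to 3, so 3 young libraries went against their labels.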

How the data were processed

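RNA was measured by bulk sequencing of sorted cells in 20 libraries, each from 5 ng of total RNA by a stranded kit for low input, per the labels' protocols. The build mm39 and the tools Salmon 0.13.1, DESeq2 1.28.1, Trim Galore 0.4.1 and FastQC 0.11.5 are listed, without roles, in the submitters' processing notes. For 51123 Ensembl genes the authors deposited estimated counts (expected counts), whole numbers in a single table. Its 37 largest values, those with at least 7 digits, all end in 0, a multiple of 10. Salmon divides reads among similar transcripts, so levels of pseudogenes and gene families are uncertain. Symbols came from GENCODE for 48246 identifiers, on GRCm38, and served for names only.

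The comparison used edgeR 4.0.16 (R 4.3.3): TMM scaling, filterByExpr at its defaults, the quasi-likelihood F test and Benjamini-Hochberg adjustment at 0.05. The 6 tumour libraries and 2 of WT old shared 1 fit (16526 genes), repeated without the library labelled DKO cSCC 3 (16214 genes), and all 20 libraries were fitted for the difference from young epidermis (18164 genes). The standard error (SE) is the log2 fold change divided by the square root of F. Levels are CPM after TMM scaling of all 20 libraries. They are not divided by gene length, so they compare libraries and not genes. With 13380830 to 16784240 counts per tumour library, the number of libraries and their spread, not depth, set the precision of all but the lowest genes. The median SD of log2 CPM over genes was 0.371 in DKO and 0.385 in PKO. No 2 libraries of a group were near copies, with a chi-square per degree of freedom of 87.5 or more. Same-numbered DKO and PKO libraries did not deviate together (r = -0.038, -0.142 and -0.139), so numbers were not treated as pairs.

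The gene lists (22 of pathways, 8 of markers), the naming rule and the comparison itself were chosen with earlier results of these data known. Lists are described by counts and medians, with no set test. Genes with an official symbol, outside predicted, ribosomal protein, mitochondrial, immunoglobulin, small RNA and sex-linked genes, were named where the groups did not overlap and the higher group had a mean of at least 5 CPM: the 12 with the smallest p each way, and 6 each way without the library labelled DKO cSCC 3. From each list the members with the smallest p, up to 4, were also named, and the 5 genes with at least 20 CPM that stood furthest above the next tumour in each library; 3 genes so taken are not reported here. Alternatives were other scalings and filters, DESeq2 1.42.0, limma 3.58.1 voom, a robust prior, other libraries in the fit, the replicate number as a block and each library left out. The edgeR step was tested on simulated data. Promoters came from RefSeq on GRCm38.p6.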

Additional observations from a re-analysis of the deposited data

How the results depend on the processing

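The number of genes called for DKO against PKO carcinomas was 1 in edgeR as fitted and kept that value under TMMwsp and RLE scaling, a mean of at least 10 CPM and a robust prior. It was 375 with no filter on low counts (269 higher, 106 lower), 200 with DESeq2, 0 with limma voom (998 genes at an unadjusted p under 0.05), 3 with the tumour libraries alone in the fit (Rps13-ps1, Rpl34-ps1 and Vcp-rs), 2 with all 20 libraries (Cst6 and Cxcl12), and 0 without both the library labelled DKO cSCC 3 and PKO cSCC 2, the last chosen after seeing the data (876 at an unadjusted p under 0.05). Leaving out 1 tumour library gave 0 to 1: 1 without DKO cSCC 1 or the library labelled DKO cSCC 3, and 0 without any other. Without the library labelled DKO cSCC 3 the count was 1, and it was 149 with no filter, 84 with DESeq2, 0 with voom, 0 with the tumour libraries alone, 2 with the other libraries added (Cst6 and Tob1) and 0 to 0 on leaving out a further library. For the difference from young epidermis it was 0, and 93 with no filter, 480 with DESeq2, 2 without the 4 libraries whose Wwox or Trp53 goes against the label (Rpl34-ps1 and an identifier without a symbol, a choice added after seeing the data), and 0 to 11 on leaving out 1 library, 11 without PKO young 2. The cause of these gaps was not tested.

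The replicate number as a block (replicate block) left 0 calls for DKO against PKO, with the third DKO library and without it, and 0 for the difference from young epidermis. In the check of pairing, same-numbered tumour libraries did not deviate together, but pairs of unlike number were not compared. A shared batch or litter was not tested.

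Genes whose libraries did not overlap numbered 1234 higher and 981 lower. With counts divided by the library total and no scaling they were 690 and 2587, so the share that lay higher without overlap depends on the scaling. TMMwsp and RLE scaling moved the median of all genes by under 0.1, from -0.033 to -0.0055 and 0.0084. Leaving out 1 library gave 2037 to 2336 higher and 1439 to 2043 lower of the same 16526 genes. Groups with fewer libraries separate more often whatever the genes, so these numbers do not compare directly with those of all 6 libraries. The exact permutation p of Trp53 was 1 without the library labelled DKO cSCC 3, where the direction reversed.

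Of the log2 fold changes of genes named for the 6 carcinoma libraries, 2150 values under the alternatives kept their direction and side of the threshold, 86 became called, 8 lost a call and 18 reversed. The 8 are all of Rpl34-ps1. Reversed values without both the library labelled DKO cSCC 3 and PKO cSCC 2 were -0.17 for Hba-a2, -1.503 for Tyr, -0.39 for Mitf, 3.22 for Timp1, 2.39 for Lox and 2.10 for Fn1. Under limma voom Lox was 0.053 and, for DKO cSCC 1 and 2 alone, Trp53 was 0.14. Under the replicate block Lox was 0.21 and Fn1 0.77. On leaving out 1 library the range was -0.82 to 2.19 for Hba-a2, -7.65 to 1.48 for Sox10, -1.16 to 2.19 for Tyr, -0.48 to 1.04 for Mitf, -4.79 to 2.68 for Timp1, -5.68 to 2.43 for Lox, -5.2 to 1.82 for Fn1, -1.58 to 0.033 for Krt17, -0.20 to 2.85 for Trp53 and -0.65 to 0.12 for Trp53 in DKO cSCC 1 and 2. Of the medians of the lists, 457 values moved by less than their spread and 52 by more, and the erythrocyte list had no gene left at a mean of 10 CPM.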

Other observations

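The genes next to Wwox and Trp53 on the chromosome, in the order of the GRCm38 annotation, were examined as a description. Maf, next to Wwox, was at 82.8, 121 and 185 CPM in DKO cSCC 1 to 3 and 56.1, 39.6 and 145 CPM in PKO cSCC 1 to 3, and the groups overlapped. Of the other neighbours within 4 genes on either side, Nudt7, which encodes a peroxisomal hydrolase of coenzyme A, was at 1.11, 1.78 and 1.96 CPM in DKO and 2.85, 3.13 and 2.94 CPM in PKO, and Cmc2, a mitochondrial protein gene, at 4.37, 7.26 and 6.51 CPM against 7.66, 7.59 and 7.66 CPM. Both lay lower in every DKO library, without passing an unadjusted p of 0.05 in edgeR, and for Cmc2 the gap was narrow. Of all genes tested, 5.94% lay lower and 7.47% higher without overlap. Near Trp53, Kdm6b lay higher in every DKO library, at 168, 141 and 165 CPM against 135, 89.3 and 135 CPM in PKO. Wrap53, which neighbours Trp53 and overlaps it head to head, was at 6.29, 5.64 and 5.98 CPM in DKO and 8.18, 4.17 and 8.12 CPM in PKO, so it did not follow Trp53 in the library labelled DKO cSCC 3.

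Ribosomal protein copies other than Rpl34-ps1 also took part in the calls. With the tumour libraries alone in the fit, Rps13-ps1 was called with a log2 fold change of 11.82. In the fit that WT old shared, Rps13-ps1 was not called. Its unadjusted edgeR p there was 0.0039, against 7.96e-07 for Rpl34-ps1.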
